A study of Mus musculus with 10 samples.

Results

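The 78 genes described here encode nuclear subunits of the oxidative phosphorylation (OXPHOS) machinery in mouse jejunum, the middle stretch of the small intestine. They were taken by gene symbol from 22180 genes measured on 10 Affymetrix whole-transcript arrays. The names taken were Nduf a, b, c, s and v genes, Sdha to Sdhd, Uqcr genes, Cox4 to Cox8 genes and Atp5 genes, and each gene was read from its brightest probe set with that symbol alone. By this naming 33 genes belong to complex I, 4 to complex II, 7 to complex III, 17 to complex IV and 17 to complex V. The control group was 5 arrays from Pcyt1aLoxP/LoxP mice, in which LoxP sites flank part of the gene for the enzyme that sets the pace of phosphatidylcholine synthesis. The knockout group was 5 arrays from Pcyt1aLoxP/LoxP;VilCreERT2 mice, which also carry a tamoxifen-inducible Cre recombinase under the villin promoter, active in intestinal epithelium. Mice of both groups were females of 10 to 12 weeks given tamoxifen for 5 days, fed a high-fat diet for 3 days, fasted overnight and given that diet again for 2 hours, after which 3 cm of jejunum was taken. Cre was present in the knockout group alone, so effects of Cre and of the loss of Pcyt1a cannot be told apart. The labels name no separation of the piece into layers or cells, and in such bulk RNA fewer cells of a type and less RNA per cell cannot be told apart.

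Oxidative phosphorylation takes place in the inner mitochondrial membrane. Complex I accepts electrons from NADH and complex II from succinate, ubiquinone carries them to complex III, cytochrome c carries them on to complex IV, and complex IV passes them to oxygen. Complexes I, III and IV pump protons, and complex V, the ATP synthase, makes ATP as the protons flow back. Most subunits are encoded in the nucleus and imported, while a few core subunits are made inside the mitochondrion from its own DNA. Absorptive cells of the small intestine use this ATP for nutrient transport and for building and exporting lipid after a fatty meal. The complexes sit in a membrane rich in phosphatidylcholine, the lipid whose synthesis Pcyt1a controls.

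Nuclear OXPHOS genes are known to share a small set of regulatory sequences near their start sites, so some of their promoters are given first. RefSeq promoter windows (GRCm38.p6, 250 bases before the start to 50 after it) were found for 64 of the 78 genes and for 16990 of all genes, and were searched on both strands. The NRF1 core CGCATGCGC was found in 12.5% of these members (8 genes) and in 2.46% of all genes. CCGGAAG, the core bound by ETS factors such as GABPA, was found in 25.0% (16 genes) and 11.7%. AAGATGGCG, the letters bound by YY1, was found in 7.81% (5 genes) and 2.00%, and TCAAGGTCA, those bound by the estrogen-related receptor alpha, in 3.13% (2 genes) and 0.324%. TATAAA, the TATA box, was about as common in members as in all genes, at 12.5% (8 genes) and 12.9%. A match is a description of letters in the window and not a shown binding site.

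One window per complex is printed to show how these letters lie around the start, in capitals on a lower-case background, each chosen because it holds a match. The complex I gene is Ndufs8 (chr19:3912725-3913024, minus strand), with ETS letters on the opposite strand from base 15, counting the start as 0. For complex II it is Sdhd (chr9:50603800-50604099, minus strand), with ETS letters from base -46 and estrogen-related receptor letters from base 36, both on the opposite strand. The complex III gene is Uqcrc1 (chr9:108936398-108936697, plus strand), where 2 overlapping NRF1 cores, 1 on each strand, begin at bases 30 and 31. Cox6a1 of complex IV (chr5:115348909-115349208, minus strand) holds the same overlapping pair from bases -162 and -161 and ETS letters from base -16 on the opposite strand. Atp5j2 of complex V (chr5:145191492-145191791, minus strand) holds the YY1 letters from base 23.
Ndufs8: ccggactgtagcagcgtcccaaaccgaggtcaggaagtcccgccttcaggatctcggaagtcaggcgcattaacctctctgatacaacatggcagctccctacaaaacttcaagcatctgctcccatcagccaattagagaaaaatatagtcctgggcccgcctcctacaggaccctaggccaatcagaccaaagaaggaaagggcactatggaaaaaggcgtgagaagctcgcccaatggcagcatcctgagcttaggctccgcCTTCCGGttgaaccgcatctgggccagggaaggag
Sdhd: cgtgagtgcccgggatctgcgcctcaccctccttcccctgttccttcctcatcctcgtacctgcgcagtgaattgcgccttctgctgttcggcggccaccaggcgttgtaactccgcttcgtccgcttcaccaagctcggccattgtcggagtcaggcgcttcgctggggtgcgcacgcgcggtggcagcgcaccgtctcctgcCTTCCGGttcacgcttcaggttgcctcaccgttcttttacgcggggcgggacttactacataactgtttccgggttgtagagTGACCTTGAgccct
Uqcrc1: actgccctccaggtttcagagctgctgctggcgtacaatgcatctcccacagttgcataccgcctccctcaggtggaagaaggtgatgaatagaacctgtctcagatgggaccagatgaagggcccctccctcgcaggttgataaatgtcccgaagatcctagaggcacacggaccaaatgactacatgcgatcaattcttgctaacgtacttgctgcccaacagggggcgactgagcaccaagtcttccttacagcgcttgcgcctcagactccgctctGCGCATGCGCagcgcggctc
Cox6a1: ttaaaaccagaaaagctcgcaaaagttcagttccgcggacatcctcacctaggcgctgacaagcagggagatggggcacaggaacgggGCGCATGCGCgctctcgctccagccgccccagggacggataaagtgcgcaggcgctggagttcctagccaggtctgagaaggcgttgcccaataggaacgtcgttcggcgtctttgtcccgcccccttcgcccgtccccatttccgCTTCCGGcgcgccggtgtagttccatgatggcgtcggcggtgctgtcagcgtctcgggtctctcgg
Atp5j2: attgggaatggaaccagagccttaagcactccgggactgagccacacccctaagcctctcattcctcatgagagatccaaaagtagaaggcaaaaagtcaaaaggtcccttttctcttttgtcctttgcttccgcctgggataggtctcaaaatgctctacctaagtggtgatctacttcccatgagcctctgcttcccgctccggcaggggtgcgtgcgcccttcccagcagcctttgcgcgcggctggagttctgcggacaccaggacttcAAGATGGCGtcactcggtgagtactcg

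The targeted gene was read first as a check of the labels. Pcyt1a had a log2 intensity of 7.24 to 7.66 in the 5 knockout arrays and of 8.95 to 9.51 in the 5 controls. The groups did not overlap, and Pcyt1a in knockout lay at 30.6% of control (log2 difference -1.71, SE 0.11, limma adjusted p 6.51e-05, exact two-sided permutation p 0.00794, the smallest that 5 against 5 arrays can give). Which probes lie in the deleted part is not stated in the sources used here. Markers of the absorptive epithelium were bright in every array, with Alpi between 12.56 and 13.10 and Sis between 13.23 and 13.36. The labels do not say that each array came from a separate animal, so the p-values speak of the spread among samples, part of which may be technical.

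No OXPHOS subunit gene passed the test between knockout and control. Of the 78 genes 0 had an adjusted p under 0.05 in limma, against 76 of the 22180 genes (0.343%), and the lowest adjusted p of a member was 0.382 (Cox5b). With 1 array left out, the number of all genes called ran from 11 (without knockout 2) to 268 (without knockout 1), and 0 members were called in any of these fits. Before adjustment, 1 member was higher at p under 0.05, where 5.82% of all genes were, and 0 members were lower, where 6.25% of all genes were. In 0 of the 78 genes did the knockout arrays all lie on 1 side of the control arrays, which was the case for 2.77% of all genes. At the background share of 0.343%, fewer than 1 of 78 genes would be called, so the count of 0 by itself is no result about these genes.

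The differences of the members were small as well as uncalled. They ran from -0.29 (Ndufb11) to 0.26 (Atp5o) on the log2 scale, with standard errors of 0.0762 to 0.178. The median size of a member's difference, sign ignored, was 0.0714, against 0.102 over all genes and 0.106 over the genes left when the dimmest 30% were dropped. Members also varied little within groups, with a median within-group SD of 0.151 against 0.183 over all genes and 0.174 without the dimmest 30%. For 76 of the 78 genes (97.4%) the 95% confidence interval of the difference lay within a 1.5-fold change in either direction, which held for 85.3% of all genes. The exceptions were Ndufb11 and Ndufa5, whose lower bounds were -0.64 and -0.60. For 51 members (65.4%) the interval lay within 1.25-fold, against 38.8% of all genes. The widest upper bound was 0.57, for Atp5o.

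**Figure D1:**
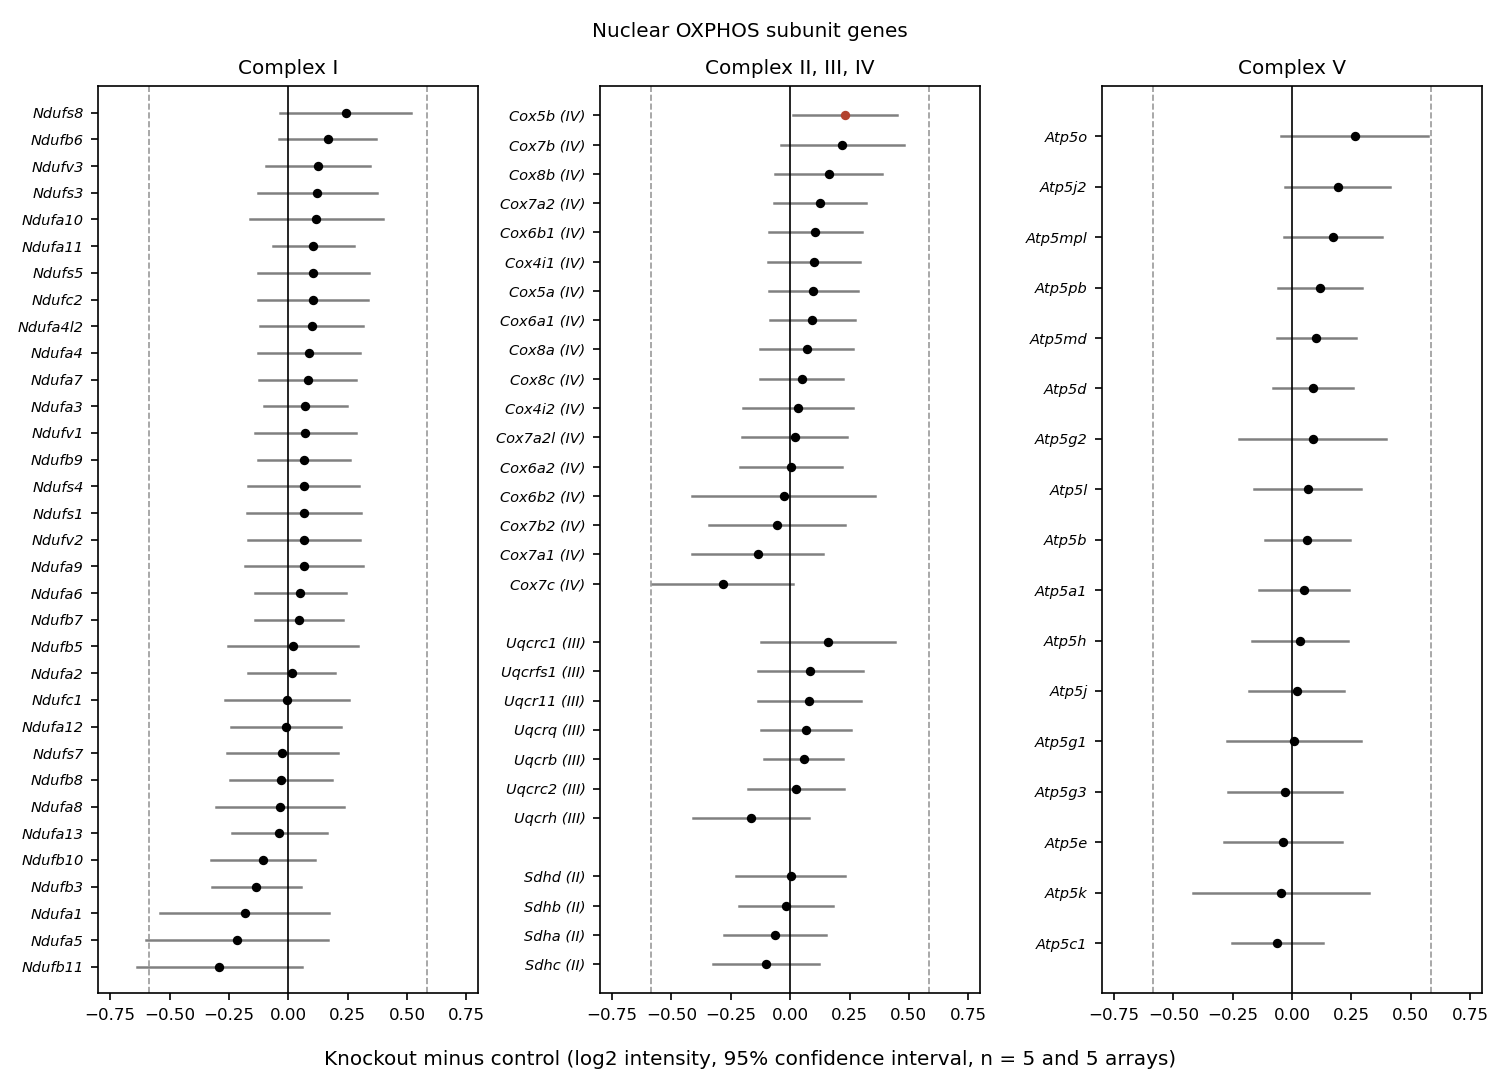
Log2 difference in intensity, knockout minus control, for each of the 78 genes by complex (points), with 95% confidence intervals from limma (bars, 5 knockout and 5 control arrays), and dashed lines at a 1.5-fold change either way. The red point is Cox5b, the one gene with an unadjusted p under 0.05, and 76 of the 78 bars stay between the dashed lines.

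More members had a higher than a lower mean in knockout, by small amounts. A total of 55 genes lay above 0 and 23 below (70.5% higher, against 49.9% of all genes), and the median difference was 0.06 on the log2 scale, against -0.000354 over all genes. Members were read from the same arrays, so this count is no count of independent observations. The median depended on single arrays, at 0.03 without knockout 1, 0.04 without knockout 4, 0.04 without control 2 and 0.10 without knockout 5. It was 0.06 in complex I (22 of 33 genes higher), 0.07 in complex III (6 of 7), 0.07 in complex IV (13 of 17) and 0.06 in complex V (13 of 17). In complex II it was -0.04 (1 of 4 genes higher), and the 95% intervals of all 4 genes spanned 0. Single arrays moved these medians too. Without knockout 1 the median was 0.03 in complex I, 0.02 in complex III, 0.02 in complex V and -0.09 in complex II, and without control 5 that of complex II was above 0, at 0.00567. Without knockout 4 it was 0.03 in complex I and 0.02 in complex V, without control 2 it was 0.04 and 0.03 in the same complexes, and without knockout 5 it was 0.10 and 0.11. Complex V was also at 0.04 without control 1 and 0.10 without control 3. Other single arrays moved complex II between -0.07 and -0.01.

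Complex I takes electrons from NADH at a peripheral arm whose core is built of Ndufs and Ndufv subunits. Its 6 measured core subunits (Ndufs1, Ndufs3, Ndufs7, Ndufs8, Ndufv1 and Ndufv2) were higher in knockout in 5 cases and lower in 1, with a median of 0.07. Ndufs8, which binds iron-sulphur clusters near the ubiquinone site, had the lowest p of the complex. Its log2 intensity was 9.51, 9.59, 9.42, 9.61 and 8.98 in knockout arrays 1 to 5 and 9.25, 9.02, 9.41, 9.09 and 9.12 in control arrays 1 to 5. Knockouts 1 to 4 lay at or above the highest control and knockout 5 lay below every control. The difference was 0.24 (SE 0.13) and did not pass (adjusted p 0.487). The accessory genes Ndufs4, Ndufs5 and Ndufv3 were higher in 3 of 3 cases, by 0.07 to 0.13.

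The Ndufb and Ndufc genes encode accessory subunits, most of them in the membrane arm, and the largest differences of complex I in both directions outside the core were among them. Ndufb11, an accessory subunit of that arm, read 5.40, 5.50, 5.68, 5.60 and 5.72 in the knockout arrays and 6.07, 5.22, 5.88, 6.21 and 5.97 in the controls. All controls except control 2 lay above every knockout, and control 2 was the lowest array of all. Its difference of -0.29 (SE 0.16) did not pass (adjusted p 0.515), and without control 2 the adjusted p was 0.135. Ndufb6, in the same arm, read 8.20, 7.98, 8.04, 8.19 and 7.98 in knockout and 7.75, 7.97, 8.07, 7.75 and 8.02 in control. Knockouts 1 and 4 lay above every control and the groups otherwise overlapped, with a difference of 0.17 (SE 0.09, adjusted p 0.523). Of the 10 Ndufb and Ndufc genes, 5 were higher and 5 lower, with a median of 0.01.

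The Ndufa genes encode accessory subunits around the core. Of 14, 9 were higher and 5 lower, between -0.22 (Ndufa5) and 0.12 (Ndufa10). Ndufa4 carries a complex I name but its protein is now counted with complex IV, and Ndufa4l2 is its paralog, known to be induced by low oxygen. Ndufa4 read 11.25, 11.14, 11.12, 11.21 and 10.83 in knockout and 10.95, 10.92, 11.19, 10.94 and 11.11 in control, a difference of 0.09 (SE 0.10), with knockout 5 the lowest array. Ndufa4l2 was among the dimmest 30% of genes, at 4.69 to 5.04 in knockout and 4.57 to 4.97 in control, with a difference of 0.10 (SE 0.10). Neither passed, at adjusted p 0.790 and 0.758.

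Complex II is succinate dehydrogenase, which also serves the citric acid cycle and is made wholly from nuclear genes. Sdha carries the flavin, Sdhb the iron-sulphur clusters, and Sdhc and Sdhd anchor the enzyme in the membrane. Sdhc read 10.36, 10.09, 10.19, 10.13 and 10.07 in the knockout arrays and 10.27, 10.05, 10.25, 10.21 and 10.56 in the controls. Control 5 was the highest and control 2 the lowest array, so that the whole knockout range lay inside the control range, and the difference was -0.10 (SE 0.10). For Sdha the values were 11.40, 11.09, 11.07, 11.22 and 10.95 in knockout and 11.09, 11.23, 11.37, 11.12 and 11.25 in control. Here knockout 1 was the highest and knockout 5 the lowest of the 10 arrays, and the difference was -0.06 (SE 0.10). Sdhb read 9.73, 9.51, 9.70, 9.55 and 9.60 in knockout and 9.51, 9.58, 9.68, 9.53 and 9.86 in control, a difference of -0.02 (SE 0.09). Sdhd differed by 0.00 (SE 0.10). Adjusted p was 0.754 or more for all 4 genes, and 3 of the 4 intervals stayed within 1.25-fold, the exception being Sdhc.

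Complex III passes electrons from ubiquinol to cytochrome c. Uqcrc1, one of its large core proteins on the matrix side, read 11.39, 11.10, 10.91, 11.04 and 10.71 in knockout and 10.74, 10.77, 11.01, 10.71 and 11.13 in control. Knockout 1 was the highest array, and knockout 5 and control 4 shared the lowest place, so the groups overlapped over most of their range. The difference was 0.16 (SE 0.13). Uqcrfs1, the Rieske iron-sulphur protein, read 8.21, 7.93, 7.75, 8.02 and 7.82 in knockout and 7.88, 7.76, 7.89, 7.73 and 8.04 in control, a difference of 0.09 (SE 0.10) with overlapping groups. Uqcrh, the hinge protein next to cytochrome c1, was the only gene of the 7 with a lower mean in knockout. It read 9.21, 8.94, 9.16, 9.04 and 8.75 in knockout and 9.13, 9.01, 9.24, 9.10 and 9.46 in control, with knockout 5 lowest and control 5 highest, and differed by -0.16 (SE 0.11). Adjusted p was 0.614 for Uqcrh, 0.692 for Uqcrc1 and 0.805 for Uqcrfs1, and the other 4 genes differed by 0.02 to 0.08.

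Complex IV, cytochrome c oxidase, reduces oxygen at a catalytic core made in the mitochondrion, surrounded by nuclear subunits. Cox5b, a matrix-side subunit that binds zinc, had the lowest p of all 78 genes. Its log2 intensity was 11.44, 11.26, 11.18, 11.32 and 10.98 in knockout arrays 1 to 5 and 10.89, 10.89, 11.08, 10.99 and 11.17 in control arrays 1 to 5. Knockouts 1 to 4 lay at or above the highest control, and knockout 5 lay within the control range. The difference was 0.23 (SE 0.10), a fold of 1.17, with an unadjusted p of 0.0397 in limma that did not pass adjustment over all genes (adjusted p 0.382). A second probe set named for Cox5b, a much dimmer one, differed by 0.01 (SE 0.21).

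Cox7b and Cox7c, small membrane-spanning subunits, had differences of opposite sign. Cox7b read 10.20, 10.00, 9.92, 9.91 and 9.51 in knockout and 9.57, 9.65, 9.78, 9.81 and 9.62 in control. Knockouts 1 to 4 lay above every control and knockout 5 lay below every control, for a difference of 0.22 (SE 0.12, adjusted p 0.502). Its second probe set differed the other way, by -0.17 (SE 0.10). Cox7c read 7.27, 7.12, 6.98, 7.28 and 6.97 in knockout and 7.47, 7.02, 7.35, 7.37 and 7.84 in control, so that all controls except control 2 lay above every knockout. Its difference was -0.29 (SE 0.14, adjusted p 0.432), the lowest value of the complex. Without control 5, the highest array, it was -0.18.

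Several complex IV subunits exist as a widely used form and a form best known from heart and skeletal muscle, lung, testis or brown fat. For Cox4i1, the general form of the largest nuclear subunit, the intensities were 9.84 to 10.03 in knockout and 9.71 to 10.12 in control, a difference of 0.10 (SE 0.09). Its counterpart Cox4i2, known from lung, differed by 0.03 (SE 0.11). Cox6a1 differed by 0.09 (SE 0.08) and its muscle form Cox6a2 by 0.00 (SE 0.10). Cox6b1 differed by 0.11 (SE 0.09) and Cox6b2, the testis form, by -0.03 (SE 0.18). The muscle form Cox7a1 ranged over 9.89 to 10.52 in knockout and 10.17 to 10.49 in control, a difference of -0.14 (SE 0.13), while Cox7a2 differed by 0.12 (SE 0.09) and Cox7a2l, which helps join complexes III and IV, by 0.02 (SE 0.10). Cox8a differed by 0.07 (SE 0.09), and Cox8b, Cox8c and Cox7b2, all among the dimmest 30% of genes, by 0.16 (SE 0.10), 0.05 (SE 0.08) and -0.06 (SE 0.13). None of these 13 isoform genes passed, with adjusted p from 0.582 (Cox8b) upward. Of the 7 forms best known from other tissues, 4 were higher and 3 lower, with a median of 0.00 (0.00275). The 10 remaining genes of complex IV were higher in 9 cases, Cox7c being the exception, with a median of 0.10. A list of 10 striated muscle genes, read beside the muscle forms, had array means of -0.19 to 0.06 in knockout and -0.18 to 0.27 in control, and its part in their values was not tested.

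Complex V joins a catalytic head, which makes ATP, to a membrane part that carries protons. The head and central stalk (Atp5a1, Atp5b, Atp5c1, Atp5d and Atp5e) differed by -0.06 to 0.09, and all 5 of their intervals stayed within 1.25-fold. The 3 genes for the c-ring, Atp5g1, Atp5g2 and Atp5g3, whose products share the same mature sequence, differed by 0.01, 0.09 and -0.03. Of the peripheral stalk, which holds the head still, 4 of 4 genes were higher, and Atp5o, the subunit that joins the stalk to the head, had the largest positive difference of all 78 in the reported fit. Atp5o read 7.42, 7.43, 7.46, 7.31 and 7.32 in knockout and 7.28, 6.98, 6.65, 7.13 and 7.58 in control. The knockout arrays were close together (SD 0.07), 4 controls lay below all of them and control 5 above all of them (control SD 0.35). The difference of 0.26 (SE 0.14) did not pass (adjusted p 0.504), and without control 3 it was 0.15, below Ndufs8 (0.30) and Cox5b (0.25) in the same fit.

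In the membrane part, 4 of 5 genes were higher. Atp5j2, subunit f of the enzyme, read 6.60, 6.31, 6.29, 6.22 and 6.57 in knockout and 6.09, 6.22, 6.39, 6.10 and 6.23 in control. Knockouts 1 and 5 lay above every control, unlike most members, in which knockout 5 was low. Its difference was 0.19 (SE 0.10, adjusted p 0.490). Atp5mpl, a small proteolipid of the same part, read 10.20, 10.12, 10.12, 10.20 and 9.82 in knockout and 9.88, 9.90, 10.09, 9.80 and 9.92 in control. Knockouts 1 to 4 lay above every control and knockout 5 near the lowest control, and the difference was 0.17 (SE 0.10, adjusted p 0.513).

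**Figure D2:**
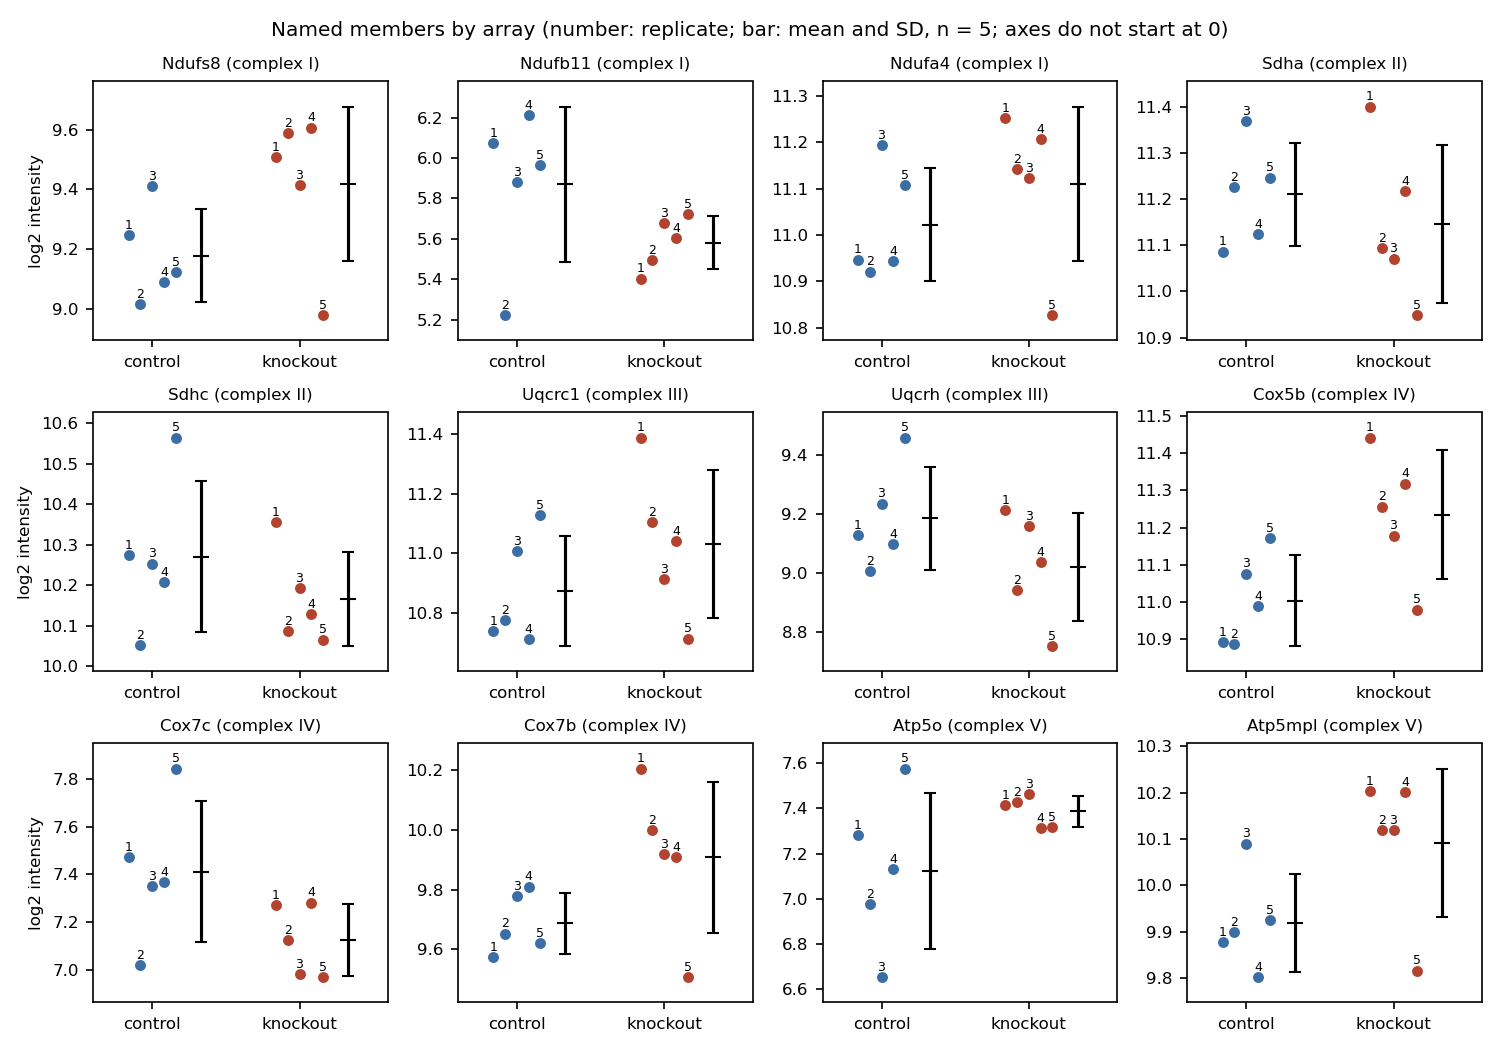
Log2 intensity of 12 genes in each array (points, numbered by replicate) with the mean and SD of the 5 control (blue) and 5 knockout (red) arrays, on axes that do not start at 0. In Ndufs8, Cox5b, Cox7b and Atp5mpl knockouts 1 to 4 sit at or above the highest control and knockout 5 sits far below them. In Ndufb11 control 2 sits apart below the other controls, and in Cox7c control 2 is the lowest and control 5 the highest control.

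The same arrays were high or low in gene after gene, in both groups. Each gene's values were centred on its mean over the 10 arrays, and the centred values were averaged over the 78 genes. This array mean was 0.15, 0.03, 0.01, 0.05 and -0.14 in knockouts 1 to 5 and -0.05, -0.11, 0.04, -0.08 and 0.11 in controls 1 to 5. The spread within each group (SD 0.10 in knockout and 0.09 in control) was larger than the distance between the group means, at 0.02 and -0.02. Knockout 1 was the highest of the 10 arrays in 37 of the 78 genes (47.4%), where it was highest in 7.46% of all genes. Knockout 5 was the lowest array in 34 members (43.6%), against 13.5% of all genes. Control 5 was highest in 21 members (26.9%, against 16.6%) and control 2 lowest in 15 (19.2%, against 7.75%). Without knockout 5, Ndufs8, Cox5b, Cox7b and Atp5mpl were higher at unadjusted p under 0.05 and 0 members lower (7.38% and 6.25% of all genes), 0 members were called and the lowest adjusted p was 0.167 (Ndufs8).

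Complexes I, II, III and V had nearly the same arrays at their extremes. Knockout 1 had the highest mean in complexes I (0.17), III (0.16) and V (0.20), and control 5 in complex II (0.21). Knockout 5 had the lowest mean in all 4, between -0.19 in complex I and -0.15 in complex III. Complex IV as a whole was flatter, from -0.07 to 0.08, but its 10 genes other than the forms best known from other tissues spanned -0.18 (control 2) to 0.15 (knockout 1). The 7 forms best known from other tissues ran in another order, from -0.15 in knockout 4 to 0.15 in control 2.

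**Figure D3:**
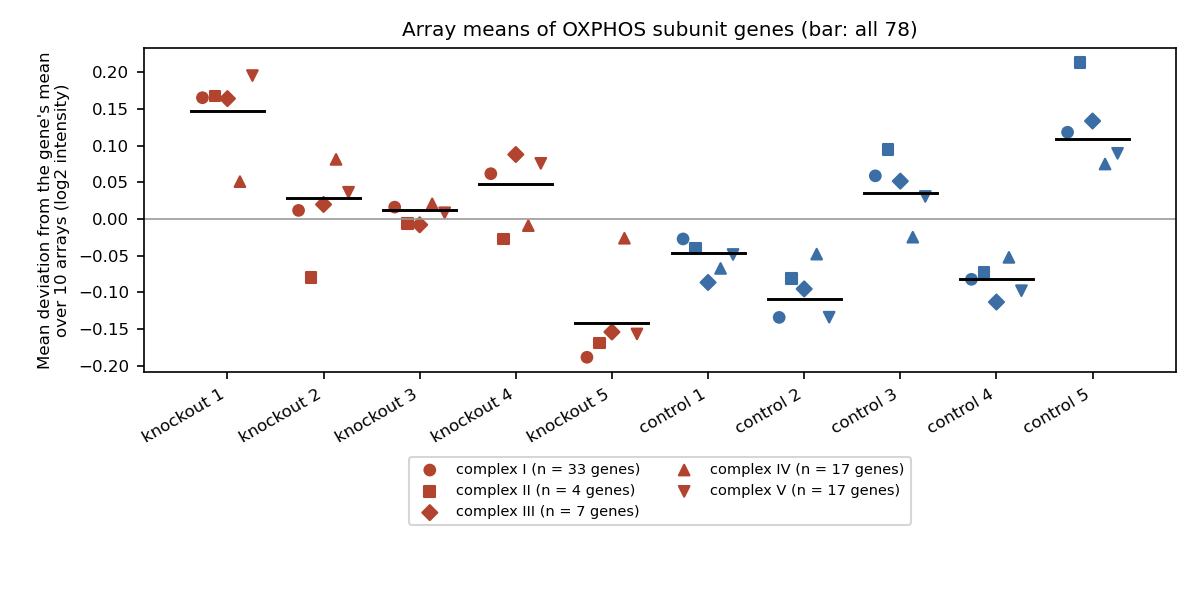
Mean deviation of each complex's genes from their own mean over the 10 arrays (log2 intensity, symbols by complex, knockout in red and control in blue), with a black bar for the mean of all 78 genes. The bars of knockout 1 (0.15) and control 5 (0.11) are the highest and those of knockout 5 (-0.14) and control 2 (-0.11) the lowest, so that each group holds both high and low arrays.

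Marker lists of other cells and gut regions were read in the same arrays. The list of ileum genes (9 of 10 measured), which mark the last part of the small intestine, had array means of -1.06, 1.09, 0.63, 0.72 and 1.18 in knockouts 1 to 5, and of -0.87 to 0.00 in the controls. Of the 9 ileum genes 8 were higher in knockout and 1 lower (median 0.67, 5 higher and 1 lower at unadjusted p under 0.05, 0 called). Fabp6, the ileal bile acid binding protein, had the largest positive difference of all 22180 genes (3.89). It ran from 4.31 (knockout 1) to 11.20 (knockout 2) in knockout and from 4.36 to 5.38 in control. Knockout 1, with the highest OXPHOS mean, was thus the lowest array for the ileum list, and knockout 5, with the lowest OXPHOS mean, the highest. Knockouts 2, 3 and 4 were above 0 in both and controls 1 and 4 below 0 in both. Controls 3 and 5 were above 0 in OXPHOS genes and below 0 in the ileum list. Among the controls the order by ileum mean was the reverse of the order by OXPHOS mean. It ran from control 2 (ileum 0.00, OXPHOS -0.11) to control 5 (ileum -0.87, OXPHOS 0.11). The source of this order was not tested. The list of 10 proximal small intestine genes had array means of 0.45, -0.49, -0.19, -0.50 and -0.44 in knockouts 1 to 5 and 0.14, 0.02, 0.24, 0.28 and 0.49 in controls 1 to 5. Control 5 and knockout 1 led both this list and the OXPHOS genes, whereas knockouts 2 and 4 were low in this list and above 0 in OXPHOS genes, and control 4 was the reverse. With the ileum mean as a covariate, 0 members were called (lowest adjusted p 0.379) and the median difference was 0.17. In that fit 15 members were higher and 1 lower at unadjusted p under 0.05, where 3.42% of all genes were higher and 4.31% lower. A higher value in knockout was found for 71 of the 78 genes (91.0%), against 48.3% of all genes. Knockouts 2 to 5 all lay above every control in the ileum mean, so this covariate and group were largely confounded. Knockout 1, also the highest array for OXPHOS genes, was the only knockout not above the controls. Its part in these estimates was not tested. With both knockout 1 and control 5 left out, 0 members were called and the median was 0.05.

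Lists of other cells and states were read too. The mean of 14 mature enterocyte genes lay between -0.25 and 0.03 in knockout and between -0.06 and 0.12 in control. Of these 14 genes 12 were lower in knockout and 2 higher (median -0.06, lowest difference -0.72, 1 lower at unadjusted p under 0.05, 0 called). The 13 proliferation genes had array means of 0.39, 0.35, 0.27, 0.65 and -0.49 in knockouts 1 to 5 and -0.10, -0.38, 0.44, -0.40 and -0.73 in controls 1 to 5. This list lay on the same side of 0 as the OXPHOS mean in 9 of the 10 arrays, control 5 being the exception, and 11 of its 13 genes were higher in knockout (median 0.59, 7 higher and 1 lower at unadjusted p under 0.05, 0 called). Of 8 goblet cell genes 7 were lower in knockout (median -0.26, 5 at unadjusted p under 0.05), and of 9 fibroblast and endothelium genes 8 were higher (median 0.30, 3 at unadjusted p under 0.05), with 0 called in both lists. The smooth muscle list was high in control 4 alone (1.04, with the other 9 arrays between -0.34 and 0.16), and the Paneth cell list was lowest in control 5 (-2.10) and knockout 1 (-0.84). The part of these lists in the members' values was not tested, apart from the ileum covariate.

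Genes that build and serve the complexes were read alongside, from lists written for this purpose. For the 13 subunits encoded in mitochondrial DNA, 0 were found under their names among the genes used here. Of 47 assembly factors 44 were measured, 32 of them higher (72.7%) and 0 called, with a median of 0.08. Before adjustment 4 were higher and 1 lower at p under 0.05. Sco1, a copper chaperone of complex IV, read 8.78, 9.02, 8.94, 8.98 and 9.18 in knockout and 8.65, 8.75, 8.54, 8.71 and 8.40 in control. Its groups did not overlap, and the difference of 0.37 (SE 0.10) did not pass (adjusted p 0.143). Cox18, which inserts a core subunit of complex IV, differed by 0.42 (SE 0.16, adjusted p 0.310).

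Among 20 measured electron carriers and partners of the chain, 12 were higher and 0 called. Coq10b, which binds ubiquinone, read 9.00, 8.67, 8.62, 8.35 and 8.79 in knockout and 9.61, 9.42, 9.02, 9.25 and 9.43 in control. Every knockout lay below every control, and the difference of -0.66 (SE 0.14) had an adjusted p of 0.0701, which did not pass and was the lowest of these lists. Prodh, which feeds electrons from proline into the chain, differed by 0.34 (SE 0.14, adjusted p 0.361). Of the complex III subunit cytochrome c1, cytochrome c and the acyl carrier of complex I, whose symbols lie outside the naming rule, Cyc1 differed by 0.18 (SE 0.11), Cycs by 0.05 (SE 0.10) and Ndufab1 by -0.08 (SE 0.14).

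The 11 measured genes for exchange of ATP and phosphate and for uncoupling had a median of 0.00 (0.00257) and 0 calls. Ckmt1, the mitochondrial creatine kinase, differed by 0.15 (SE 0.07) and Slc25a31, an adenine nucleotide carrier known from testis, by -0.14 (SE 0.09). In the citric acid cycle 5 of 17 genes were higher and 12 lower, with a median of -0.04 and 0 calls. Those with the smallest p were alternative beta subunits of succinate-CoA ligase, Suclg2 at 0.29 (SE 0.15) and Sucla2 at -0.17 (SE 0.09). Of 19 genes for protein import and chaperones 15 were higher, with a median of 0.13 and 0 calls. Tomm40, the import channel of the outer membrane, differed by 0.41 (SE 0.19) and the receptor Tomm22 by 0.20 (SE 0.10), and the list's array means ran from -0.27 in knockout 5 to 0.27 in knockout 4.

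The regulators of mitochondrial gene expression gave 0 calls among 19 genes, with 9 higher and 10 lower. Gabpa, the DNA-binding subunit of the ETS factor whose letters are shown above, read 8.34, 8.29, 8.33, 8.32 and 8.17 in knockout and 8.43, 8.38, 8.44, 8.52 and 8.52 in control. Every knockout lay below every control, by a small amount, and the difference of -0.17 (SE 0.07) did not pass (adjusted p 0.389). Ppargc1a, the coactivator known for driving mitochondrial biogenesis, read 10.11, 9.67, 9.83, 9.51 and 9.84 in knockout and 9.78, 9.86, 10.02, 10.42 and 10.44 in control. Controls 4 and 5 were the highest arrays and the groups overlapped, with a difference of -0.31 (SE 0.15, adjusted p 0.443). Nrf1 differed by -0.11 (SE 0.08) and Esrra, the estrogen-related receptor alpha, by -0.05 (SE 0.10), at adjusted p 0.668 and 0.902.

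**Figure D4:**
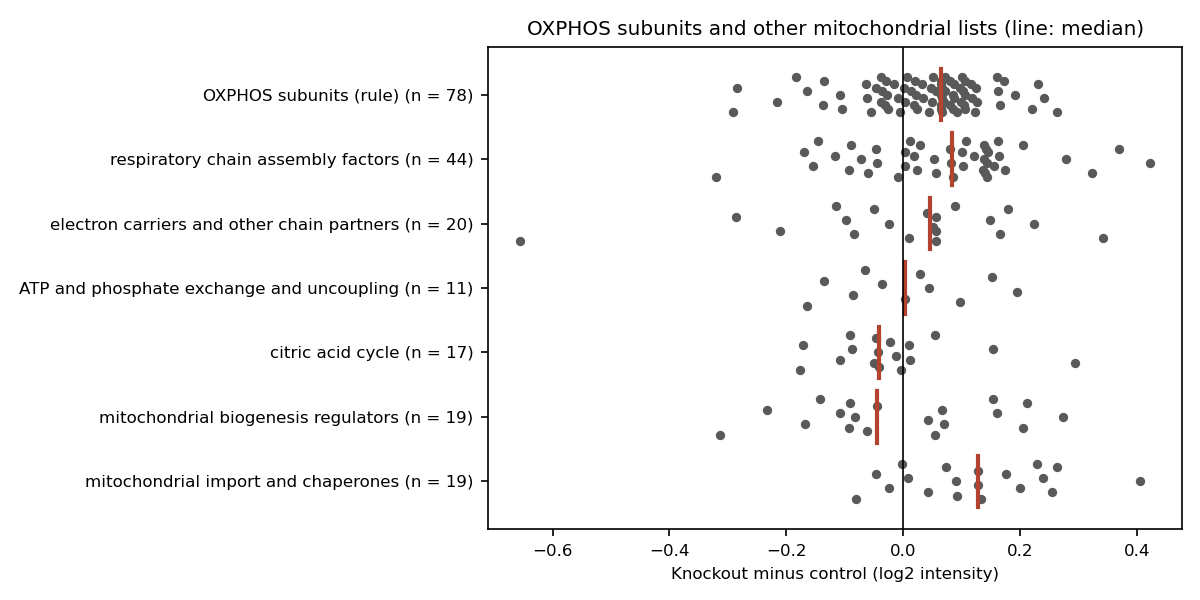
Log2 difference in intensity, knockout minus control, of each gene in the OXPHOS set and in 6 other mitochondrial lists (points), with each list's median (red line). The 78 subunits lie between -0.29 and 0.26, a narrower range than the assembly factors or the electron carriers, where Coq10b stands lowest at -0.66. The exchange genes (-0.17 to 0.20), citric acid cycle genes (-0.18 to 0.29) and import genes (-0.08 to 0.41) span less than the subunits.

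Further probe sets were examined to account for subunits that the naming rule left aside. A second probe set existed for 9 of the 78 genes, and 4 of the 9 differed in the same direction as the brighter one, with values from -0.17 to 0.23. Of these, 1 had an unadjusted p under 0.05, for Atp5d (0.23, SE 0.09), against 0.09 (SE 0.08) for its brighter probe set. A further 10 probe sets carried a subunit's symbol together with another gene's, with differences from -0.05 to 0.19 and 0 unadjusted p under 0.05. Cox6c, Ndufb2, Ndufb4, Ndufs6 and Uqcr10 were represented only there, with differences of 0.11 and 0.15 for Cox6c, 0.01 for Ndufb2, 0.03 for Ndufb4, 0.13 and 0.11 for Ndufs6 and 0.19 for Uqcr10. The signal of such a probe set cannot be given to 1 gene.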

How the data were processed

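RNA of 10 jejunum samples, 5 knockout and 5 control by their titles, was measured on Affymetrix arrays from 400 ng of RNA with the WT Plus kit, per the labels' protocols. The authors deposited intensity values made with Expression Console 1.4.1.46 and RMA, per the submitters' processing notes. RMA brings arrays to a shared distribution, so a shift of most transcripts would not show. The deposited intensity values were linear (1.8 to 15278.7, array medians 45.8 to 48.1), where the design had assumed log2 values, so log2 was taken first. Correlations between arrays were 0.972 to 0.993. Detection calls were not used, and the number of arrays limits precision.

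Of 41345 probe sets, 23521 had 1 gene symbol in the platform annotation, 1814 several and 16010 none. Genes with several probe sets (1082) were read from the brightest, which gave 22180 genes. Knockout was set against control with limma 3.58.1 (R 4.3.3; lmFit and eBayes with a term for group alone), with Benjamini-Hochberg over all genes and a threshold of 0.05. The fit was tested on simulated data. The members and all gene lists were chosen with earlier results of these data known. Genes named with values were the 3 with the smallest p in each complex, the isoform pairs and the 2 with the smallest p in each companion list, some of them by array. Gene list counts are descriptions, with no test of a list. Alternatives were other scalings, dropping dim genes, averaging probe sets, other variance models, weighting arrays, a replicate block, leaving out arrays, an ileum covariate, testing all probe sets and a threshold of 0.1.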

Additional observations from a re-analysis of the deposited data

Results flagged for a closer look

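In a group of 5 arrays, an array was marked when its gap to the nearest other array was large against the group's whole range (Dixon's 95% critical value of 0.71). Of 74 groups of arrays examined 1 was marked, where chance marks about 1 in 20 groups. It was Atp5mpl, in which knockout 5 read 9.816 while knockouts 1 to 4 read 10.12 to 10.20, a gap of 0.782 of the range.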

How the results depend on the processing

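Under every alternative run, 0 of the 78 genes were called, and the lowest adjusted p of any member was 0.135 (Ndufb11 without control 2). The number of members with a higher mean in knockout ran from 47 (without knockout 1) to 71 (ileum covariate). The number with an unadjusted p under 0.05 in limma was 1 in the reported fit and 16 with the ileum covariate. It was 4 without knockout 5 (Ndufs8, Cox5b, Cox7b and Atp5mpl) or without control 3, and 5 with array weights. It was 0 without knockout 2, knockout 3, control 1 or control 4, and 0 with probe sets averaged. The median difference was 0.03 to 0.10 when single arrays were left out. With the ileum covariate, which was largely confounded with group, it was 0.17 over all members, 0.10 in complex II and 0.19 in complex V. In that fit 6 genes of 22180 were called. The labels do not say whether the replicate numbers pair the arrays. Deviations of same-numbered arrays from their group means correlated above 0.1 in 1 of 5 pairs (correlations -0.13 to 0.12), so the numbers were not used as pairs. With the replicate block 0 members were called, 0 had an unadjusted p under 0.05 and 27 genes were called in place of 76.

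No member was called in any fit, so turned signs concern uncalled differences, and the cause was not tested. With the ileum covariate 17 members turned from lower to higher and 1 from higher to lower. Among the genes named with values, with that covariate Cox4i2 was -0.126, Sdha 0.101, Sdhb 0.0894, Sdhc 0.0682 and Uqcrh 0.0302. With array weights Cox6a2 was -0.0273 and Sdhb 0.0149. With quantile normalization Cox6a2 was -0.00681 and Cox7a2l -0.0108. Without both knockout 1 and control 5, Cox6a2 was -0.0422, Cox6b2 0.0990 and Sdhb 0.0134. When 1 array was left out at a time, the ranges were Cox4i2 -0.0367 to 0.0798, Cox6a2 -0.0696 to 0.0411, Cox6b2 -0.141 to 0.112, Cox7a2l -0.0289 to 0.0960, Cox7b2 -0.110 to 0.0477 and Sdhb -0.0468 to 0.0417. With 5 arrays a group, changes smaller than the intervals given could not be detected.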
